A study of Mus musculus with 4 samples.

Results

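The regions described here were 293 tandem duplications at poorly covered sites of mouse lung DNA, out of 1404 recorded over 4 exome libraries. In each of them a segment was followed by a second copy of itself, and 20 or more fully read bases, the intervening bases, lay between the copies. A record was a member when its intervening bases held no run of 8 or more N, when fewer than 15 reads covered the site in the tumor or the normal column, and when the reference allele held no simple repeat. A simple repeat was a homopolymer of 8 or more bases, or 3 or more perfect copies of a unit of 2 to 6 bases over 12 or more bases. The question put to them was whether the intervening bases copied the duplicated segment, its reverse complement, or neither.

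There was 1 library in each group: wild-type mice (WT) gave normal lung and a lung tumor, and so did mice heterozygous for the FEN1 A159V mutation (A159V). The labels give a FEN1 knock-in as the treatment of all 4 samples, the WT ones included, and name neither strain, age nor tumor induction. The labels do not say whether tumor and normal tissue were taken from the same animal. The WT libraries held 792 of the records, 172 of them members, and the A159V libraries 612, with 121 members. Depth at member sites had a median of 1 read in each library and reached 18, 31, 21 and 46 reads in WT normal lung, WT tumor, A159V normal lung and A159V tumor. Of the 293 members, 258 rested on 1 supporting read and 127 had no reference read in either library. The deposited genotype held the duplication in 1 member. A stray N was left in the intervening bases of 11 members.

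FEN1, flap endonuclease 1, removes the displaced 5′ flap of an Okazaki fragment, so that the lagging strand can be sealed. A flap that stays can be ligated in place and leave a tandem duplication, and a flap whose bases pair with each other can fold back on itself. A duplication can carry further bases at its junction. Where these repeat nearby sequence they are called templated, directly if they run in the same direction and inverted if they are its reverse complement.

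The classes are easiest to see in the sequences, which are given 5′ to 3′ on the plus strand of GRCm38. Capitals mark bases that the segment and the intervening bases share in exact matches of 12 or more bases. In the segment copies these matches run in the same direction. The segment copies are shown by C2cd2l, which encodes a lipid transfer protein of endoplasmic reticulum contact sites (chr9:44317711-44317752), by Mast4, a microtubule-associated kinase (chr13:102774435-102774480), and by Fgfr2, a fibroblast growth factor receptor (chr7:130218653-130218681).
C2cd2l segment: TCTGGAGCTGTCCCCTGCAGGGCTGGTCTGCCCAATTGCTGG
C2cd2l intervening bases, WT and A159V: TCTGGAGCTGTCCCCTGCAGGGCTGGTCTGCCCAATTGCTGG
Mast4 segment: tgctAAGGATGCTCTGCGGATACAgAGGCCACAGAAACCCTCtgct
Mast4 intervening bases, WT and A159V: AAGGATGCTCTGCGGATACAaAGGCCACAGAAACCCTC
Fgfr2 segment: ATCCACACAGACACATCCACACAGACACA
Fgfr2 intervening bases, WT: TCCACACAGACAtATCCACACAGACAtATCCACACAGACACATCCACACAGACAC

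The inverted copies are shown by Rarb, a retinoic acid receptor (chr14:16799465-16799512, A159V), by Syn3, a synapsin (chr10:86150406-86150452, WT), and by Ovch2, which encodes a secreted serine protease of the ovochymase family (chr7:107796397-107796445, WT). Here the capitals mark the longest match between the intervening bases and the reverse complement of the segment.
Rarb segment: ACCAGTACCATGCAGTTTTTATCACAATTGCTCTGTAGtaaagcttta
Rarb intervening bases: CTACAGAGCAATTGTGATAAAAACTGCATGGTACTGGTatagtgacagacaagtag
Syn3 segment: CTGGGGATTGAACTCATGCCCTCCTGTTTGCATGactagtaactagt
Syn3 intervening bases: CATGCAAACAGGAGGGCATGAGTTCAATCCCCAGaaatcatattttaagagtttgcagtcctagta
Ovch2 segment: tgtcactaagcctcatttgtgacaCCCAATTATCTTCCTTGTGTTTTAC
Ovch2 intervening bases: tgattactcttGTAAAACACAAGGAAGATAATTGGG

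The class with neither copy is shown by Npas1, a transcription factor of the bHLH-PAS family (chr7:16461254-16461277), where each genotype carried nearly the same unmatched bases.
Npas1 segment: gggaacagggaagcagggtcattc
Npas1 intervening bases, WT: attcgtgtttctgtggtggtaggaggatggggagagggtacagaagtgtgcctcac
Npas1 intervening bases, A159V: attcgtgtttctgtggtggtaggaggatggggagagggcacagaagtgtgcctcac

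With exact matches of 12 or more bases, further copies of the segment were about as frequent as records with neither match, and inverted copies were rare. An exact match of 12 or more bases to the segment was found in 129 of the 293 members (44%, 95% interval 38.3 to 49.9), where over all 625 records with resolved intervening bases the share was 31%. A match to the reverse complement alone was found in 19 members (6.48%, 3.95 to 9.94; 5.92% of the 625 records), and in 9 when matches had to cover 50% or more of the intervening bases. In 144 members (49.1%, 43.3 to 55; 62.7% of the 625 records) neither match was found. The remaining member, in Slc4a10, a sodium-coupled bicarbonate transporter gene, matched in both directions, and its segment holds a run of 18 bases that equals its own reverse complement (0.32% of the 625 records were of this kind). The balance depended on the match rule. With an 8-base match, segment copies were 152 of the 293 members and records with neither match 108. When matches had to cover 50% or more of the intervening bases, they were 99 and 185. Intervals on shares are exact Clopper-Pearson intervals and cover counting error only.

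Most matches were well above or well below the limit of 12 bases. The longest match to the segment was 4 to 7 bases in 129 members and 8 to 11 bases in 34, and the longest match to the reverse complement was 4 to 7 bases in 220 and 8 to 11 bases in 13. At 12 or more bases, matches to the segment reached 49 bases with a median of 24, and matches to the reverse complement 38 bases with a median of 25. In the plot of match lengths the inverted copies form a column in which no match to the segment exceeds 7 bases. The segment copies lie in a band in which no match to the reverse complement exceeds 10.

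**Figure D1:**
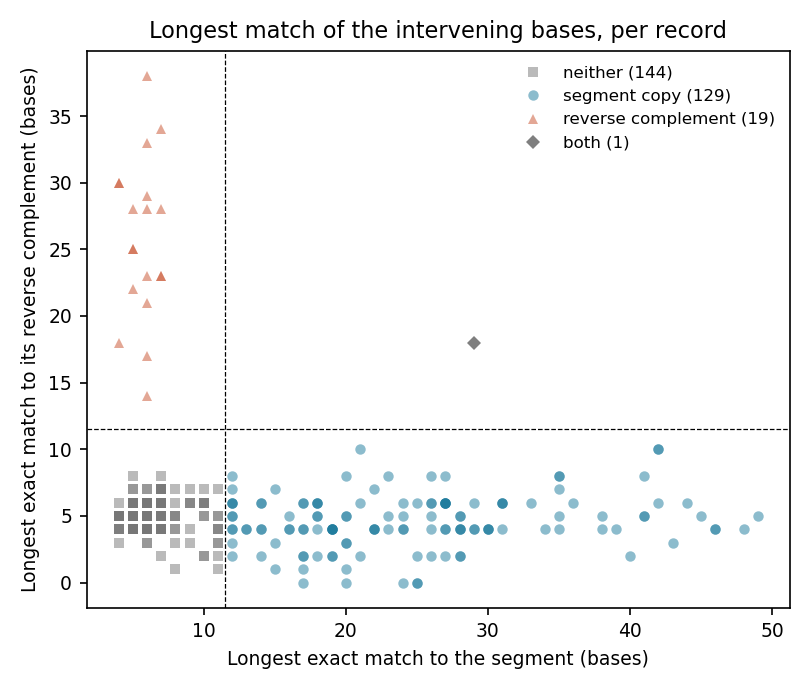
Longest exact match of the intervening bases to the segment (x axis, bases) against the longest exact match to its reverse complement (y axis, bases), 1 point per member record, with dashed lines at the limit of 12 bases. The 19 inverted copies (triangles) and the 129 segment copies (circles) occupy separate arms, with 1 record in both.

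Among the segment copies, many duplicated alleles could be read as a longer array of 1 repeated unit. The whole segment was found between the copies in 23 of the 129 records, and in 4 of them the intervening bases were the segment and nothing else, as in C2cd2l and in Gch1, which encodes the first enzyme of tetrahydrobiopterin synthesis (A159V, 48 bases). Matches covered 50% or more of the intervening bases in 98 of 129, with a median coverage of 79.5%. When each duplicated allele was laid over itself at every shift of 10 or more bases, 73 of 129 segment copies (56.6%, 47.6 to 65.3) reached an identity of 90% or more, and 25 reached 100%. Of the 19 inverted copies none did so (at most 47.4% identity), and none of the 144 records with neither copy did (at most 81.7%). A period follows in part from the match that defines the class, so this contrast is a description.

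The period of these 73 arrays ranged from 11 to 72 bases, with a median of 42. In 60 of the 73 the inserted length was a whole number of periods. It was 2 periods in 39 records and 3 in 11. Where the segment is at least as long as the period, an unbroken array forces a whole number. An unbroken array with a period shorter than the segment also makes the segment begin and end with the same bases. The agreement that follows is therefore a description. In 39 records the period was shorter than the segment, and in 38 of these the shortfall equalled the longest run of bases with which the segment both began and ended. That run had 1 to 5 bases in 29 of the 38. In the other 9 records it had 7 to 31 bases, among them both WT alleles of Fgfr2, whose segments repeat internally. Mast4 is a record with a short run: its segment of 46 bases starts and ends with tgct, and the array repeats every 42 bases at 97.7% identity. Over all members, 77 of 129 segment copies (59.7%, 50.7 to 68.2) began and ended with the same 2 or more bases, against 31 of 144 records with neither copy (21.5%, 15.1 to 29.1) and 1 of 19 inverted copies. The share was 37.2% of all 293 members and was not computed over all records. Arrays with a period shorter than the segment add to the 77, so this contrast is also a description.

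A period of 42 bases was the most frequent example and was found in 11 records at 8 loci. The most frequent inserted length, 84 bases, was carried by 23 members, 20 of them segment copies. At C2cd2l the array repeated every 42 bases without a mismatch. At Fgfr2 both WT alleles had 84 inserted bases and a shorter period of 14 bases, at 97.9% and 98% identity. Inserted lengths that were multiples of 3, with 84 among them, made up 49.6% of segment copies (40.7 to 58.5). They made up 35.4% of records with neither copy (27.6 to 43.8). The share was 41.6% of all 293 members and was not computed over all records. The 20 segment copies with 84 inserted bases are part of the first share. The intervals of these classes overlap, and exons were not resolved, so nothing is said of reading frames.

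Many of the segments repeated parts of themselves, although simple repeats had been removed. In 31 of 129 segment copies (24%, 16.9 to 32.3) a run of 12 or more bases recurred within the segment at a shift of 7 or more bases, as in Fgfr2. Among records with neither copy 7 of 144 did so (4.86%, 1.98 to 9.76), and among inverted copies none of 19, which allows up to 15.8%. Over all members the share was 13% (9.34 to 17.4), and it was not computed over all records. Where such a repeat runs on into the intervening bases it can itself meet the rule for a segment copy. This contrast is therefore a description. Not every segment copy was an array. At Ndufa3, a subunit gene of respiratory complex I, the longest match was 14 bases rich in T and C. It lay near the end of 69 intervening bases, and overlapping matches there covered 27.5% of them. The Ndufa3 record had 3 of 6 A159V normal reads and 1 of 3 tumor reads. At Nlrp14, a NOD-like receptor gene, a match of 12 bases covered 23.1% of 52 intervening bases. All WT reads there carried the duplication, 4 of 4 in normal lung and 2 of 2 in the tumor.

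The layout of the inverted copies was described without a comparison to other records. Only the intervening bases were searched against the segment, so an inversion that ran past either would be cut at that end. In 14 of the 19 records the inverted stretch began with the first base of the segment, in 6 it ended with the last base, and in 2 of these it held the whole segment. In 10 of 19 the first segment base was in the match and the inversion lay directly against the first copy, as in Rarb and Syn3. In 4 of 19 the mirror image was found, with the last segment base in the match and the inversion directly against the second copy, as in Ovch2. One record, in Slc43a1, an amino acid transporter gene, touched no end. The bases between a stretch and its inversion, which would form the loop of a hairpin, numbered 5 to 44 towards the first copy (median 17) and 12 to 51 towards the second (median 25).

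**Figure D2:**
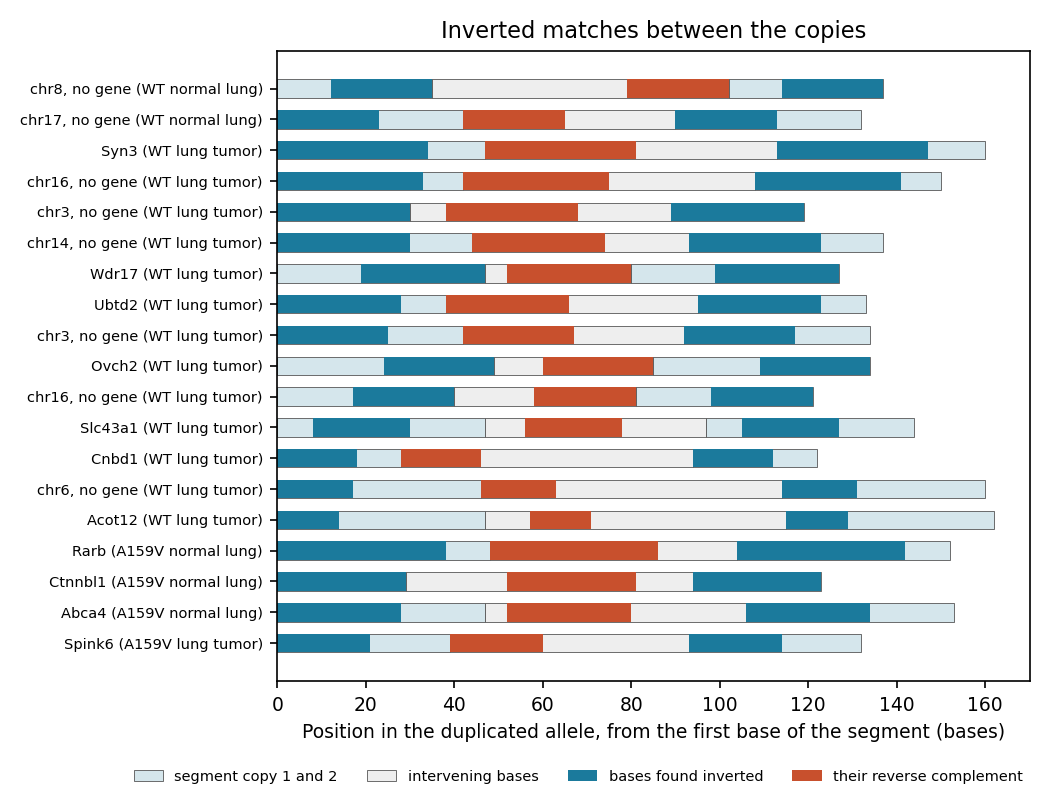
The 19 duplicated alleles with an inverted copy, drawn to scale from the first base of the segment (x axis, bases): pale blue for the copies of the segment, grey for intervening bases, dark blue for the bases found inverted, and red for their reverse complement. In 10 of 19 rows the red block abuts the first copy, and in 4 of 19 the second.

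Each of the 19 inverted copies among the members rested on 1 supporting read. So did 258 of all 293 members and 140 of the 144 records with neither copy. The longest were in Rarb (38 bases, 1 of 1 A159V normal read), Syn3 (34 bases, 1 of 1 WT tumor read) and a site outside protein-coding genes on chromosome 16 (33 bases, 1 of 2 WT tumor reads). The best covered were in Acot12, an acyl-CoA thioesterase gene, with 1 of 18 WT tumor reads and none of 14 normal reads, and in Ovch2, with 1 of 9 WT tumor reads and none of 13 normal reads. Slc43a1 had 1 of 13 WT tumor reads and none of 5 normal reads. Spink6, a gene of the Kazal-type serine protease inhibitor family, had 1 of 9 A159V tumor reads and none of 9 normal reads. Ctnnbl1, which encodes a spliceosome-associated protein, and Abca4, the retinal lipid transporter gene, each had 1 of 2 A159V normal reads and none of 1 tumor read. Absence from the other library was not detectable at these depths.

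Segment copies had a record of the other genotype nearby far more often than the other classes did. That nearby record could be of any class and did not have to be a member, so this is not recurrence of a segment copy. A record of the other genotype lay within 10 bp of 55 of the 129 segment copies (42.6%, 34 to 51.6), of 11 of the 144 records with neither copy (7.64%, 3.87 to 13.3) and of none of the 19 inverted copies, which allows up to 15.8%. Over all 1404 records the share was 20%. Outside dense windows, which are stretches of 100 kb with 8 or more records, it was 46.2% (36.9 to 55.6) for segment copies and 5.47% (2.23 to 10.9) for neither. Among records with 1 supporting read it was 31.6% (22.6 to 41.8) for segment copies and 6.43% (2.98 to 11.9) for neither. Depth at the site was not matched in this subset, and the cause of the difference was not tested.

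Read support was also higher in segment copies than in records with neither copy. There were 2 or more supporting reads over the libraries of a genotype in 31 segment copies (24%, 16.9 to 32.3) and in 4 records with neither copy (2.78%, 0.762 to 6.96). None of the 19 inverted copies had them, which allows up to 15.8%, so inverted copies cannot be ranked against records with neither copy. Over all records the share was 11.1%. Reads from tumor and normal lung alike were found in 14 segment copies (10.9%, 6.06 to 17.5) and in 2 records with neither copy (1.39%, 0.169 to 4.93). Over all records that share was 6.13%. Records with reads in both libraries have 2 or more reads by definition, so they are among the 31 and the 4. Another record of the same genotype lay within 10 bp of 29 segment copies and of 2 records with neither copy (13.4% over all records). No reference read was seen in 50.4% of segment copies (41.5 to 59.3), 21.1% of inverted copies (6.05 to 45.6) and 40.3% of the others (32.2 to 48.8), with 35.9% over all records. Sites without a reference read were thus found in each class.

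**Figure D3:**
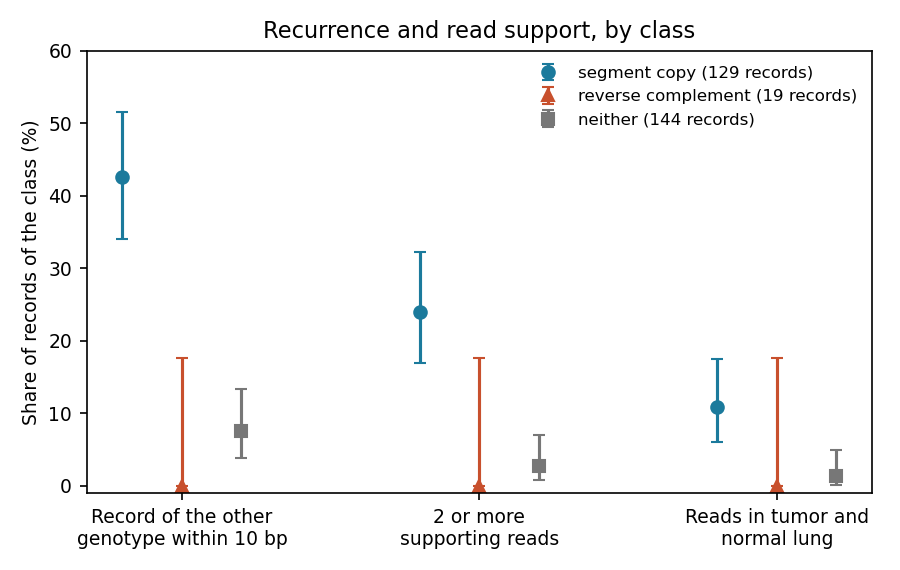
Share of records (y axis, %) with a record of the other genotype within 10 bp, with 2 or more supporting reads, and with reads in both tumor and normal lung, for 129 segment copies, 19 inverted copies and 144 records with neither; bars are exact 95% intervals. Segment copies are highest for each property (42.6%, 24% and 10.9%) and inverted copies are at 0.

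Members of both genotypes met at 17 of 271 loci. At 13 of these each genotype had a segment copy, and at the other 4 each had a record with neither copy. Reads were present in both normal lungs at 6 of the 17 loci, in both tumors at 10, and in all 4 libraries at 1, the first Mast4 locus. Of the loci, 4 carried an identical allele in both tables.

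At the first Mast4 locus the allele with 46 duplicated and 38 intervening bases had 0 of 2 WT normal reads, 2 of 8 WT tumor reads, 1 of 8 A159V normal reads and 3 of 6 A159V tumor reads. A WT record that starts 1 base later, with 1 of 3 normal reads and none of 6 tumor reads, fell into the class with neither copy because its longest match was 11 bases, though its allele also had its highest identity at 42 bases (74.7%). At a second Mast4 locus (chr13:103228114-103228158) each of 3 records had 1 tumor read, 2 of them in the WT. Mast4 held 6 members in all, the most of any gene.

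At C2cd2l the identical array had 1 of 1 WT normal reads, 2 of 4 WT tumor reads, 3 of 3 A159V normal reads and none of 2 A159V tumor reads. At Fgfr2 the 2 WT alleles had 5 of 5 and 2 of 2 tumor reads and no normal coverage. The A159V allele had 1 of 1 normal read and none of 1 tumor read. The Fgfr2 alleles thus differed in sequence between genotypes, and no library but the WT tumor covered the site with more than 1 read per record. At a site outside protein-coding genes on chromosome 19 (chr19:59959367-59959410) the WT had 3 of 3 normal and 3 of 3 tumor reads, and A159V 1 of 1 normal read with no tumor coverage.

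At Npas1 the 24 base segment was followed by 56 bases without a match in either direction. The WT allele had 3 of 6 normal reads and 1 of 1 tumor read, and the A159V allele 0 of 2 normal reads and 2 of 3 tumor reads. Between the genotypes the intervening bases differed by T39C (WT base, position from the first intervening base, A159V base). Of the 11 pairs of shared records with equal segments and equally long intervening bases, 4 were identical, 5 differed at 1 base, 1 at 2 bases and 1 at 7 bases. At Pglyrp1, which encodes a peptidoglycan recognition protein, each tumor had 2 of 2 reads and neither normal lung was covered. Its period was 15 bases in both alleles, at 84.5% identity in the WT and 76.1% in A159V.

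By library, WT tumor had the most members. Counts with a supporting read were 68 in WT normal lung (exact Poisson interval 52.8 to 86.2), 115 in WT tumor (94.9 to 138), 59 in A159V normal lung (44.9 to 76.1) and 67 in A159V tumor (51.9 to 85.1). The members were chosen partly by depth, so these counts only describe the set. With 1 library per group there was no replicate check and no test between groups.

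The share of segment copies ranged from 40.3% to 52.5% over the 4 libraries. It was 42.6% (29 of 68, 30.7 to 55.2) in WT normal lung and 48.7% (56 of 115, 39.3 to 58.2) in WT tumor. In A159V it was 52.5% (31 of 59, 39.1 to 65.7) in normal lung and 40.3% (27 of 67, 28.5 to 53) in the tumor. All 4 intervals overlapped. The share with neither copy was 54.4% (41.9 to 66.5) and 39.1% (30.2 to 48.7) in WT normal lung and tumor, and 42.4% (29.6 to 55.9) and 58.2% (45.5 to 70.2) in A159V normal lung and tumor.

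Inverted copies were most numerous in the WT tumor, with 13 of 115 members (11.3%, 6.16 to 18.6). WT normal lung had 2 of 68 (2.94%, 0.358 to 10.2), A159V normal lung 3 of 59 (5.08%, 1.06 to 14.1) and A159V tumor 1 of 67 (1.49%, 0.0378 to 8.04). The WT tumor interval overlapped each of the others. In 170 records of the same kind with 15 or more reads in both columns, which were not among the members, the WT tumor was not the highest of the 4 libraries. There inverted copies were 4 of 64 in WT tumor (6.25%, 1.73 to 15.2), 3 of 41 in WT normal lung (7.32%, 1.54 to 19.9), 3 of 48 in A159V tumor (6.25%, 1.31 to 17.2) and 1 of 37 in A159V normal lung (2.7%, 0.0684 to 14.2).

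**Figure D4:**
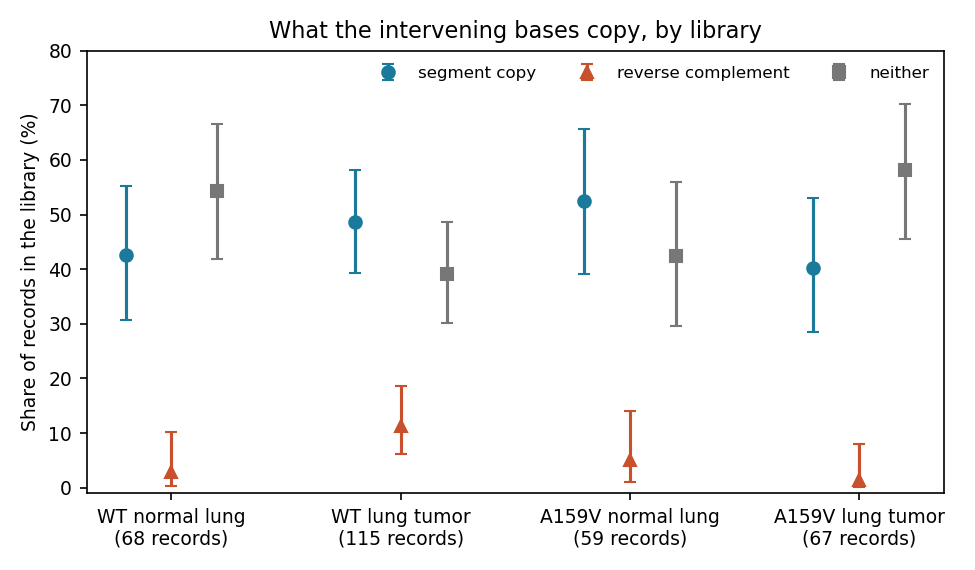
Share of members with a supporting read in each library (y axis, %) whose intervening bases copy the segment, its reverse complement or neither; bars are exact 95% intervals and cover counting error only. The inverted share is highest in the WT tumor (11.3%), with an interval that overlaps those of the other 3 libraries.

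Set against those 170 well-covered records, the low-coverage members differed in how often the segment was copied. Segment copies were 13 of 170 well-covered records (7.65%, 4.13 to 12.7), and 5 of 108 outside dense windows (4.63%, 1.52 to 10.5), against 117 of 265 members outside dense windows (44.2%, 38.1 to 50.4). The intervals did not overlap. Inverted copies made up 10.2% of well-covered records outside dense windows (5.2 to 17.5) and 7.17% of such members (4.37 to 11), with overlapping intervals. At 162 simple repeats with resolved bases, segment copies were 32.1% (25 to 39.9).

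By depth, the share of segment copies was lower past the limit of 15 reads than at the lowest depths, and inside the limit all intervals overlapped. Outside dense windows it was 46.8% (38.8 to 54.9) of 156 records where the less covered column had 0 reads, 48.1% (34 to 62.4) of 52 with 1 read and 43.5% (23.2 to 65.5) of 23 with 2 to 4 reads. It was 26.5% (12.9 to 44.4) of 34 records with 5 to 14 reads. Beyond the limit it was 4.17% (0.509 to 14.3) of 48 with 15 to 39 reads and 5% (1.04 to 13.9) of 60 with 40 or more. The inverted share had no such course: 4.49%, 15.4%, 0 of 23 (which allows up to 13%), 11.8%, 12.5% and 8.33% in the same order. At the limit itself, 5 members had a lower depth of 14 reads and 4 one of 13, and 3 records outside had 15 and 3 had 16. Of records that met the other conditions, 1 had 19 intervening bases and 1 had 20.

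**Figure D5:**
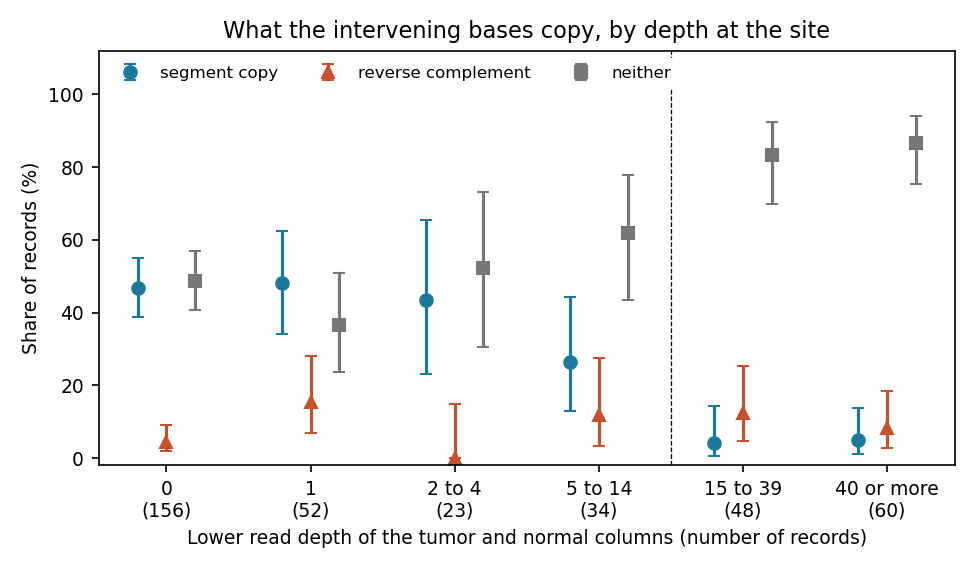
Share of records in each class (y axis, %) by the lower read depth of the tumor and normal columns (x axis, number of records in brackets), for records with resolved intervening bases, no simple repeat and no dense window; bars are exact 95% intervals, and the dashed line is the limit of 15 reads. Segment copies are 46.8% at 0 reads and 5% at 40 or more, and records with neither copy 48.7% and 86.7%.

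The records with neither copy had a median of 62 intervening bases (quartiles 49 and 67) against 54 in segment copies (41 and 63), and segments of nearly the same length (medians 42 and 41 bases). Their intervening bases held a simple repeat in 26 of 144 (18.1%, 12.1 to 25.3), against 3 of 129 segment copies (2.33%, 0.482 to 6.65). None of the 19 inverted copies held one, which allows up to 15.8%. Over all members the share was 10.2% (7.02 to 14.3), and it was not computed over all records. Segments with a simple repeat had been removed, and bases that copy such a segment are then unlikely to hold one, so this contrast is a description only. The best supported was the WT Npas1 allele. In A159V the Npas1 allele, with 2 of 3 tumor reads, was level in supporting reads with Kif5a, a kinesin heavy chain gene, which had 1 of 2 reads in each library. In the WT a site outside protein-coding genes on chromosome X (chrX:170017527-170017559) had 2 of 2 tumor reads and none of 1 normal read. GC content of the segments, over all bases of a class, was 49.1% in segment copies, 36.2% in inverted copies and 42.6% in the others.

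Protein-coding gene spans held 136 of the 293 members (46.4%, 40.6 to 52.3), where over all records the share was 53.1%. By class these were 68 segment copies (52.7%, 43.7 to 61.6), 11 inverted copies (57.9%, 33.5 to 79.7) and 56 records with neither copy (38.9%, 30.9 to 47.4). The members lay in 127 genes, 119 of which held 1 record. After Mast4 and Fgfr2, with 3, no gene held more than 2; C2cd2l and Dock2, which encodes an activator of the GTPase Rac in leukocytes, were among those with 2. Both Dock2 records were A159V segment copies with normal reads alone, 1 of 2 and 2 of 2, and no tumor coverage. The table of genes gives spans without exons, so coding sequence was not told apart.

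Members of 3 gene lists were too few to read against the records as a whole, of which 20.9% were members. The 53 replication and flap-processing genes, Fen1 included, held 8 of all 1404 records, none of them members. The 61 DNA repair genes also held 8 records, of which 2 were members, both A159V. Fanca, of the Fanconi anaemia pathway of crosslink repair, had a segment copy with a period of 43 bases and 1 of 1 tumor reads. Nhej1, an end-joining factor, had 64 unmatched bases and 1 of 1 normal reads. The 42 lung cancer genes held 12 records, of which 3 were members, all in Fgfr2.

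The longest matches to the segment spanned all or nearly all of it. At a site outside protein-coding genes on chromosome X (chrX:97757981-97758029, WT, 1 of 2 tumor reads) the match was the whole segment of 49 bases. Zfp236, a zinc finger gene, and Habp2, which encodes a hyaluronan-binding serine protease, followed in the WT with 46 bases each. Zfp236 had reads in both WT libraries, 2 of 4 normal and 1 of 2 tumor. In A159V the longest were Gch1 with 48 bases, C2cd2l with 42 and Hs6st3, a heparan sulfate sulfotransferase gene, with 41.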

How the data were processed

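Whole-exome calls from 4 mouse lung DNA libraries were used, in 2 tables with a tumor and a normal column each. Per the file headers, the authors called tandem duplications with Pindel on GRCm38 and deposited, in each cell, a genotype and the count of reads for the reference and the duplicated allele. The submitters' processing notes also name BWA and mm10, with versions and filters not given in the sources used here. Counts were used as deposited. Columns were matched to samples by the names in the sample descriptions.

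In all records the altered allele was the reference allele, the intervening bases and the segment again, so the intervening bases were cut out by length. A class was given by the longest exact match, 12 bases or more, to the segment and to its reverse complement. Periods were searched from 10 bases to 50% of the allele. Genes came from overlap with RefSeq spans on GRCm38.p6. Python 3.11.15 and scipy 1.17.1 gave exact Clopper-Pearson and Poisson intervals at 95%; a share of 0 carries the limit that 3 records allow. Intervals treat records as independent, and cover counting error only; no molecular identifiers were reported, so PCR copies may be among the reads. The matching was tested on random bases with planted exact copies. That test did not cover internally repeating sequence or the shortest segments and intervening bases.

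The members, lists and limits were chosen with earlier results of these data known. Named records were, per class and genotype, the 3 with most supporting reads, and per genotype the 3 longest matches in each direction. Members in the 3 gene lists, in the 4 genes with most records and at the 6 best supported shared loci were also named. The shares in depth bins, the period and the overlap with other genotypes were chosen after the data were seen. No reference for satellite DNA was at hand, so dense windows were left out in its place.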

Additional observations from a re-analysis of the deposited data

Results flagged for a closer look

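In each of the 3 classes the tumor differed from normal lung in opposite directions in the 2 genotypes, which is why they are listed here. Segment copies were 6.05 percentage points more frequent in the tumor in the WT, and the tumor minus normal difference was -12.2 points in A159V. Inverted copies differed by 8.36 points in the WT and -3.59 points in A159V. Records with neither copy differed by -15.3 points in the WT and 15.8 points in A159V. The classes divide the same records of a library, so the 3 reversals are not separate observations. Within each genotype the tumor and normal intervals overlapped for each class. The difference between the genotypes was not tested, since each group was 1 library.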

How the results depend on the processing

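No paired analysis was possible because each group had 1 library and the labels give no replicate numbers, and no library could be left out for the same reason. Of 144 recomputed values, 118 stayed within the interval of the value reported, or within 1.5 times a count. None moved under a 16-base match, fewer than 15 reads in both columns or fewer than 10 in either, 30 or more intervening bases, records within 10 bp taken as 1 locus, or dense windows left out. Apart from the 16-base match, these settings left out or merged few records. With wide intervals the values then had little room to move, so this is a weak check. All 16 moved when 2 supporting reads were required in a library. That leaves 8, 20, 4 and 3 records in WT normal lung, WT tumor, A159V normal lung and A159V tumor, of which 87.5%, 95%, 100% and 66.7% were segment copies, 0% in each library were inverted, and 12.5%, 5%, 0% and 33.3% were neither. When matches had to cover 50% of the intervening bases, segment copies were 39.1% in WT tumor and 37.3% in A159V normal lung, inverted copies 0% in WT normal lung and in A159V tumor, and neither 67.6%, 53.9% and 61% in WT normal lung, WT tumor and A159V normal lung. With an 8-base match neither was 27% in WT tumor. With an alignment that allows mismatches, chosen after the data were seen, segment copies were 59.1% and neither 27.8% in WT tumor. Looser or stricter matching moves records between the classes by construction. For the 2-read setting the cause was not tested. Records that matched the reverse complement alone had no record of the other genotype nearby in each setting that left any. The merging by locus was not run for this, and with 2 supporting reads no such record was left. The other settings reused much the same records, so they add little to 0 of 19 in the main setting, which allows up to 15.8%. Of the records that matched in both directions, 5 of 12 had a record of the other genotype nearby with the 8-base match and 1 of 3 with the alignment. Median depth of 1 read limits every statement on absence from a library.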

Other observations

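Low-coverage records that were left out because their intervening bases held a block of 8 or more N, 314 outside simple repeats, were searched in the same way. Segment copies were 165 of them (52.5%, 46.9 to 58.2) and inverted copies 1 (0.318%, 0.00806 to 1.76). A record of the other genotype lay within 10 bp of 78 of the 165 segment copies and of 6 of the 147 records with neither copy. The inverted share was thus below that of the resolved members (6.48%, 3.95 to 9.94), with intervals that do not overlap. The block leaves shorter stretches to search on either side, and its part in the lower share was not tested.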
